A study of Mus musculus with 4 samples.

Results

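The miR-466 family is a large group of mouse microRNAs, and 17 of the 705 mouse miRNA probes on the array carry a miR-466 name. The results below concern 10 of these 17 probes. They were chosen by name and by detection: the name had to start with miR-466, miR-466f-3p was set aside, and at least 2 of the 3 spots of the probe had to carry flag 0 on both arrays of good performers or on both arrays of poor performers. The flag is a mark deposited for each spot, 0 or -50. The 10 probes are miR-466i, miR-466g, miR-466d-3p, miR-466b-3-3p, miR-466h, miR-466f-5p, miR-466c-5p, miR-466j, miR-466f and 1 probe shared by miR-466a-3p, miR-466b-3p, miR-466c-3p and miR-466e-3p.

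The RNA came from the hippocampus of wild-type C57BL/6J mice, an inbred strain, that had been trained in the Morris water maze, where a mouse learns to find a platform under the water surface. The comparison is between good performers, with 2 arrays, and poor performers, also with 2. Every mouse had been trained, and the tissue was taken right after training. The series states 4 mice per group. Their division over the arrays, their age and the scoring of performance are not stated in the material used here.

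A microRNA is a short RNA that guides an Argonaute protein to messenger RNAs, mostly through its seed, the bases 2 to 8 from the 5′ end. A hairpin precursor can give a mature strand from each arm, named 5p and 3p. In mouse, most genes of the miR-466 family lie with miR-467, miR-669 and miR-297 genes in a large repeated cluster inside Sfmbt2, an imprinted gene for a Polycomb-group protein. In a RefSeq gene table (assembly GRCm38.p6), 24 of 29 miR-466 genes lay inside Sfmbt2 on chromosome 2 and 5 lay elsewhere. By name, 8 of the 10 probes point to genes in the cluster, miR-466f having a further copy on chromosome 13. The genes of miR-466i and miR-466j lie outside it: Mir466i on chromosome 13 within the span of Cdk13, a gene for a cyclin-dependent kinase, and Mir466j on chromosome 10 outside any listed gene.

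RefSeq mature sequences were matched for only 2 of the 10 probes, and these are shown with the seed in capitals. Of the 10, miR-466i had the largest difference and miR-466j one of the smallest. The array name miR-466i gives no arm, and the RefSeq entry for that gene is the 3p strand.
miR-466i-3p: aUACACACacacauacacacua
miR-466j: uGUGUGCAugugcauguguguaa
The first lies at chr13:17747552-17747573 on the plus strand and the second at chr10:60960802-60960824 on the plus strand (RefSeq, GRCm38.p6). They share no seed, and neither seed occurs in any other of the 1679 mature names of the table. miR-466i-3p has 11 A, 8 C and 3 U among its 22 bases and no G, whereas miR-466j has 9 U and 8 G among its 23. The other 8 probes are described by name alone.

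In good performers miR-466i and miR-466g rose, by 1.46-fold and 1.39-fold, and none of the 10 probes fell. The other 8 did not pass the test. At an adjusted p under 0.05 (limma, adjusted over all 316 detected probes) 2 of 10 probes were called higher, against 3.16% of all tested probes, and calls in either direction made up 5.06%. All 10 had a higher mean in good performers, against 145 of the 316 tested probes (45.9%), but 1 to 5 of the 10 were lower with several other scalings of the arrays, as described below. The median log2 fold change was 0.14 for the 10 probes and -0.01 for all tested probes. The arrays of the groups did not overlap for 7 of the 10, all with good above poor, against 23.1% of all tested probes. These counts include miR-466b-3-3p, which met the detection rule in good performers alone. With only probes detected on all arrays, 9 of 9 had a higher mean and their median log2 fold change was 0.13. The probes were selected on detection with earlier results of these data known, so these counts are a description.

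**Figure D1:**
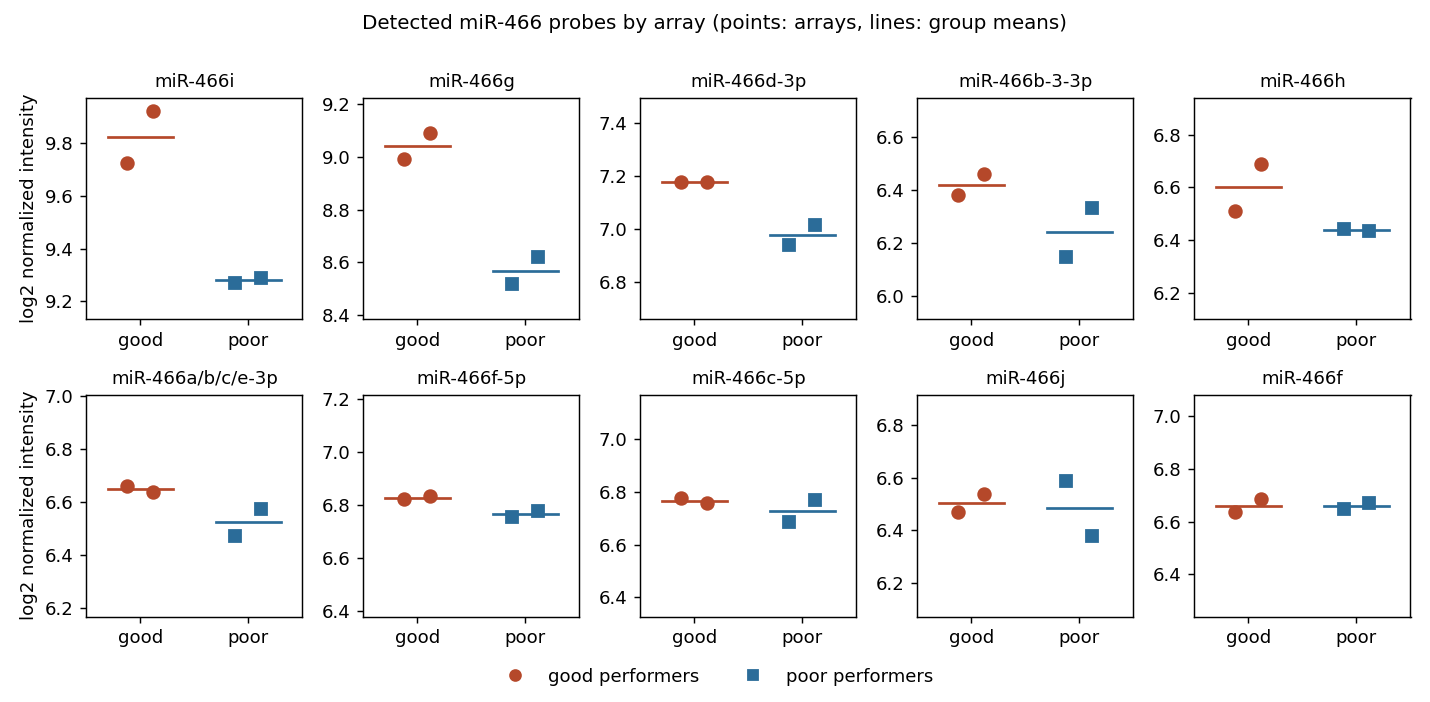
Log2 normalized intensity of each of the 10 miR-466 probes, with good performers left and poor performers right. Points are arrays, lines are group means, and every panel spans the same height on the log2 axis. The groups lie far apart for miR-466i and miR-466g, less so for miR-466d-3p, and overlap for miR-466c-5p, miR-466j and miR-466f.

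miR-466i had raw intensities of 863 and 1030.3 on the good-performer arrays, against 585 and 622 on the poor-performer arrays. Each value is the mean of 3 spots, and blank spots averaged 63 to 64.4 on the 4 arrays. After normalization it averaged 9.82 ± 0.14 log2 intensity in good and 9.28 ± 0.015 in poor performers (SD, n = 2 each). Both good-performer arrays were higher than both poor-performer arrays, and the spread was wider in good performers. This is a log2 fold change of 0.54 ± 0.07 (SE), with a 95% interval of 0.34 to 0.75 (limma adjusted p = 0.041). The third spot of this probe was the brightest on each array, so the spots of 1 array varied by 12.9% to 16.5% (coefficient of variation). Within a spot position the raw ratio of good over poor performers was nearly constant, at 1.56 to 1.58.

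miR-466g, from the cluster in Sfmbt2, had raw intensities of 518 and 584 in good performers, against 347 and 394 in poor performers. The groups did not overlap in any of its 3 spot positions, where the raw ratio was 1.45 to 1.55. Normalized values averaged 9.04 ± 0.07 log2 intensity in good and 8.57 ± 0.07 in poor performers (SD, n = 2 each), a log2 fold change of 0.47 ± 0.06 (SE, limma adjusted p = 0.031, 95% interval 0.32 to 0.63). The log2 fold changes of miR-466i and miR-466g differed by 0.07 ± 0.06 (SE of the within-array difference), and that difference overlapped between the groups.

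**Figure D2:**
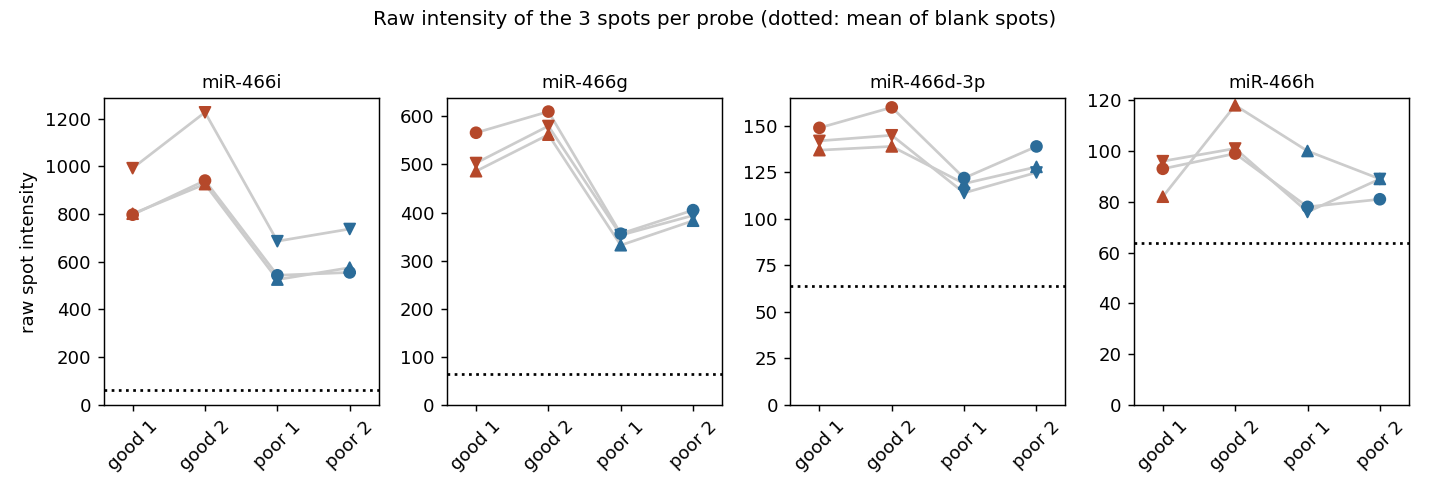
Raw spot intensity on the 4 arrays for miR-466i, miR-466g, miR-466d-3p and miR-466h, from 0 upward, with good performers left of poor performers. Grey lines join the same spot position, marker shapes mark the 3 positions, and the dotted line is the mean of blank spots. All 3 positions of the first 3 probes were brighter on both good-performer arrays than on both poor-performer arrays, while miR-466h overlapped at 1 position.

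All 3 probes named as 3p strands had array means without overlap between the groups, against 23.1% of all tested probes, and none passed the test. Among them, miR-466b-3-3p met the detection rule in good performers alone. miR-466d-3p had raw intensities of 143 and 148 in good performers, against 118 and 131 in poor performers, without overlap in the array means or in any spot position. The groups differed by 0.20 ± 0.04 (SE) log2 units (limma adjusted p = 0.076), the nearest to the threshold among the 8 that did not pass, and with a trended and robust variance model it passed (adjusted p = 0.019). It was smaller than that of miR-466g by 0.27 ± 0.05 (SE of the within-array difference), without overlap between the groups. An exact two-sided permutation test of that difference gave p = 0.333, the smallest value that 4 arrays allow, so it cannot decide.

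The shared probe of miR-466a-3p, miR-466b-3p, miR-466c-3p and miR-466e-3p stands for several genes of the cluster at once, and its signal cannot be assigned to one of them. It had raw intensities of 101 on both good-performer arrays, against 86.3 and 95 on the poor-performer arrays, and a log2 fold change of 0.13 ± 0.05 (SE, limma adjusted p = 0.233). miR-466b-3-3p had 82.3 and 90.3 in good performers, against 69 and 80.3 in poor performers, and a log2 fold change of 0.18 ± 0.08 (SE, limma adjusted p = 0.282). Poor performers replicate 1 set its low end there, at 5 units above the blank spots, whose standard deviation on that array was 4.21. miR-466b-3-3p was the 1 probe of the 10 that met the detection rule in good performers alone, so its higher value in that group is in part what the rule asks for.

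The 5p strands differed less. miR-466f-5p had raw intensities of 112 and 117 in good performers, against 104 and 109 in poor performers, and a log2 fold change of 0.06 ± 0.03 (SE, limma adjusted p = 0.321). miR-466c-5p had 109 and 111 in good performers, against 101 and 109 in poor performers, with overlapping normalized values and a log2 fold change of 0.04 ± 0.04 (SE, limma adjusted p = 0.668). The 95% intervals of these log2 fold changes ran from -0.02 to 0.14 and from -0.07 to 0.15.

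The other 3 probes carry names without an arm. In cultured mouse cells, miR-466h-5p has been described as promoting apoptosis. miR-466h had raw intensities of 90.3 and 106 in good performers, against 84.7 and 86.3 in poor performers. Good performers replicate 2 stood above the other 3 arrays, and the groups differed by 0.16 ± 0.07 (SE) log2 units (limma adjusted p = 0.298). miR-466j, with the U- and G-rich sequence shown above, had 87.3 and 95 in good performers, against 94 and 83 in poor performers. Its groups overlapped and differed by 0.02 ± 0.08 (SE) log2 units, with a 95% interval of -0.21 to 0.25 (limma adjusted p = 0.933). miR-466f had 98.7 and 105 in good performers, against 98.3 and 101 in poor performers. That is a difference of 0.00037 ± 0.03 (SE) on the log2 scale, the smallest of the 10 (limma adjusted p = 1).

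Ordered by log2 fold change, 7 of the 9 neighbouring pairs of probes had within-array differences that overlapped between the groups. The pairs that did not overlap were miR-466g with miR-466d-3p and the shared 3p probe with miR-466f-5p, and this second pair differed by 0.07 ± 0.04 (SE). The order came from these same values, which fixed the sign of each difference, so the counts of pairs are a description. Pairs further apart in the order were not compared.

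Detection divided the miR-466 probes with a gap. Of the 10, 8 had all 12 spots at flag 0, miR-466j had 11 and miR-466b-3-3p had 10. Outside the rule, miR-466k had 2 spots at flag 0 and miR-466d-5p had 1, with mean raw intensities of 66.4 and 71.2. miR-466a-5p, miR-466b-5p, miR-466e-5p and miR-466l had 0 such spots and mean raw intensities of 58.2 to 62.3, at or below the blank level. Among the miR-466 probes named as 5p strands 2 of 6 were thus detected, and among those named as 3p strands 4 of 4, miR-466f-3p included.

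The 2 called probes were the 2 well above background, miR-466i at 12.2 times and miR-466g at 7.22 times the blank level, while the other 8 lay between 1.26 and 2.11 times that level. The fold changes above include an added offset of 50 units, which draws dim probes toward 0. With the mean of the blank spots subtracted in its place, and no normalization, the ratio of good over poor performers was 1.64 for miR-466i and 1.59 for miR-466g. It was 1.35 for miR-466d-3p, 1.40 for the shared 3p probe, 1.60 for miR-466h and 2.11 for miR-466b-3-3p, of which the last rests on a value barely above blank. It was 1.19 for miR-466f-5p, 1.14 for miR-466c-5p, 1.12 for miR-466j and 1.07 for miR-466f. These ratios carry no test. On that scale miR-466d-3p, the shared 3p probe and miR-466h lay nearer to the 2 called probes, miR-466b-3-3p lay above them, and miR-466f stayed the lowest.

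**Figure D3:**
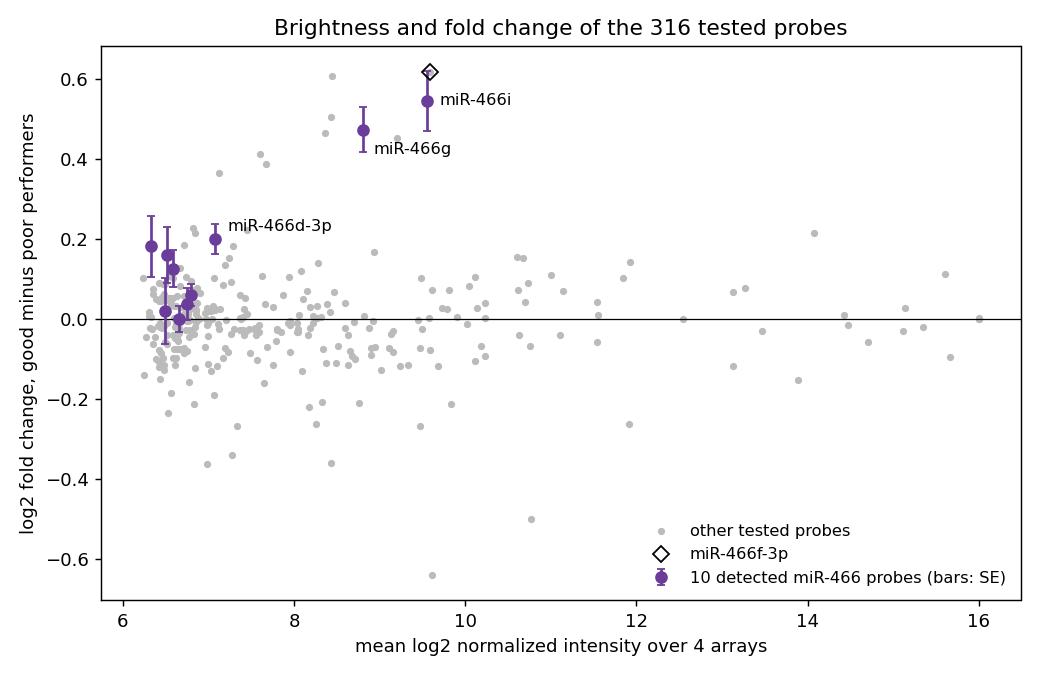
Mean log2 normalized intensity over 4 arrays (horizontal) and log2 fold change of good minus poor performers (vertical) for the 316 tested probes. Filled purple points with SE bars are the 10 miR-466 probes, grey points are other probes, and the open diamond is miR-466f-3p. miR-466i and miR-466g stand at 0.54 and 0.47, and the 8 dim probes lie between 0 and 0.20.

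The sequence of miR-466i-3p is largely a repeat of A and C, and tested probes of other miRNAs with such a repeat are shown beside it with the longest alternating run in capitals. They were picked after the values had been seen, by the motif ACACAC in the RefSeq sequence of the mature strand.
miR-466i-3p: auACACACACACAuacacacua
miR-467f: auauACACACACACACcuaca
miR-467g: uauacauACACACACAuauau
miR-574-3p: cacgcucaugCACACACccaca
All 4 had higher means in good performers, against 45.9% of all tested probes, and 3 were called, against 3.16% called higher of all tested probes. miR-466i, whose sequence gave the motif, is itself counted among the 4 and among the 3, so these counts are a description. On the log2 scale the difference was 0.54 for miR-466i, 0.45 ± 0.04 (SE, limma adjusted p = 0.011) for miR-467f, 0.39 ± 0.04 (SE, adjusted p = 0.030) for miR-467g and 0.22 ± 0.04 (SE, adjusted p = 0.074) for miR-574-3p. miR-574-3p is outside the miR-466 family, and none of the 4 sequences lies in the cluster in Sfmbt2 on chromosome 2. miR-466i-3p lies on chromosome 13, miR-467f on chromosome 11, and miR-467g and miR-574-3p on chromosome 5.

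Tested probes with the converse repeat, UGUGUG, included miR-466j and are shown in the same way.
miR-466j: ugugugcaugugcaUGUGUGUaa
miR-1187: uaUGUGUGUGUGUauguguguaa
miR-574-5p: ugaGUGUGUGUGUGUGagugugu
None of these 3 was called, and log2 fold changes were 0.02 for miR-466j, -0.10 for miR-1187 and -0.21 ± 0.05 (SE, limma adjusted p = 0.153) for miR-574-5p, the other arm of the hairpin of miR-574-3p. The remaining 2 tested probes with that motif, miR-467h and miR-669n, had 0.13 and 0.01. The motif ACACAC occurs in 11 of 1679 mature names in the table (0.655%) and UGUGUG in 28 (1.67%), counted on the mature strand. Only 77 of the 316 tested probes had a RefSeq sequence under their array name, so repeats could not be checked over all tested probes. Of these 77, 68 held neither motif. Among the 68, 22 had a higher mean in good performers and 4 were called, all lower. Whether a probe also bound related repeat sequences was not tested.

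miR-466f-3p, the family member set aside by name, differed by 0.62 on the log2 scale, beside 0.54 for miR-466i. Over the other families with genes in the cluster, the median log2 fold change was 0.43 for 6 detected miR-467 probes, miR-467f and miR-467g included. It was 0.06 for 7 detected miR-669 probes, beside 0.14 for the 10 miR-466 probes. These medians carry no test. Of the 10 probes called higher among all 316 tested, 5 were miR-467 probes, 1 was a miR-669 probe and 3 were miR-466 probes, miR-466f-3p included. The 1 detected miR-297 probe, shared by miR-297a*, miR-297b-3p and miR-297c*, differed by 0.36 on the log2 scale without passing the test (limma adjusted p = 0.057).

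The probes outside the family whose profile over the 4 arrays lay nearest to the mean profile of the 10 were miR-22, miR-191, miR-574-3p, miR-464 and let-7b. Nearness was the Euclidean distance between centred log2 profiles, 0.042 for miR-22 and 0.056 for let-7b, and it ranged from 0.057 (miR-466d-3p) to 0.376 (miR-466i) for the 10 probes themselves. Their log2 fold changes were 0.14 to 0.22, and none of the 5 passed (limma adjusted p = 0.074 to 0.160). The distance keeps the size of a difference, so probes near a mean profile with a small difference have small differences themselves. The farthest of the 10 were miR-466i, miR-466g (0.297) and miR-466j (0.238).

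In the authors' deposited table of normalized intensity, miR-466i had 772 and 880 in good performers, against 583 and 584 in poor performers. The authors' deposited table gave a log2 ratio of good over poor of 0.50 for miR-466i and 0.43 for miR-466g, the third and the fifth highest of 383 probes. In the authors' deposited table the ratio was below 0 for miR-466f-5p (-0.0069), miR-466c-5p (-0.03), miR-466j (-0.05) and miR-466f (-0.09), where the median of all its probes was -0.08.

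The sign of 5 of the 8 dim probes turned in at least 1 other setting with all 4 arrays. miR-466d-3p, miR-466b-3-3p and miR-466h stayed higher in good performers in each of those settings that fitted them. Of these, miR-466b-3-3p met the detection rule in good performers alone. Higher means in good performers numbered 10 of 10 as reported, 6 with scaling to the 75th percentile of detected probes, 6 in the authors' normalized table and 5 with scaling to spike-in controls. In the last of these the median of all tested probes was itself -0.11. Relative to the median of all tested probes in the same setting, 9 or 10 of the 10 were higher in each of the settings with all 4 arrays and all 10 probes fitted. The call of miR-466i was lost in the authors' normalized table (limma adjusted p = 0.054), with an offset of 1 (0.087) and with the median over spots (0.079), and so was that of miR-466g (0.053, 0.062 and 0.079). Without any 1 array neither passed, and log2 fold changes stayed between 0.45 and 0.64 for miR-466i and between 0.42 and 0.53 for miR-466g.

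**Figure D4:**
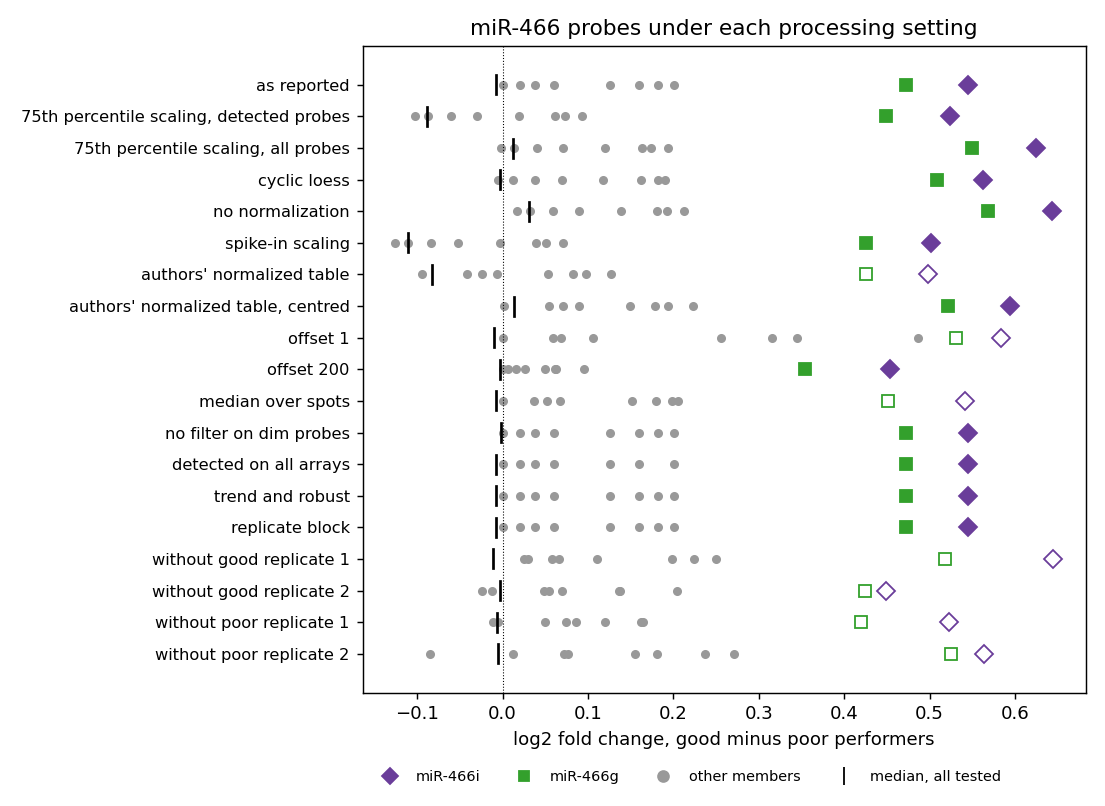
Log2 fold change of good minus poor performers for each of the 10 miR-466 probes (horizontal) under each processing setting (vertical). Diamonds are miR-466i and squares miR-466g, filled where the adjusted p was under 0.05, grey points are the other members, and black ticks are the median of all tested probes. miR-466i and miR-466g stay between 0.35 and 0.64 throughout, while the other members shift with that median and spread out with an offset of 1.

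Between 310 and 330 of the 705 miRNA probes were detected per array. The RNA carried brain miRNAs, with all 5 listed brain probes detected and miR-124 at raw intensities of 20431 to 23072, while miR-122 of liver and all 3 myeloid probes were at the blank level. Of the other marker lists, miR-219 of oligodendrocytes was lower in good performers (log2 fold change -0.27, limma adjusted p = 0.025), and the summed raw intensity of the 3 oligodendrocyte probes was 1071 and 1080.0 in good performers, against 1143 and 1164 in poor performers. Detection was not confined to brain probes. All 3 muscle probes were detected, as were 2 of 3 erythroid, 3 of 4 choroid plexus and 2 of 2 endothelial probes. The summed raw intensity of the erythroid list ran from 314 on good performers replicate 1 to 489 on poor performers replicate 2. No probe of the muscle, erythroid, choroid plexus or endothelial lists was called. For 3 astrocyte probes, none of them called, the summed raw intensity was 9075 and 9377 in good performers, against 8283 and 8436 in poor performers. The sum of the 5 brain probes was higher as well, at 31214 and 31186 against 29178 and 28532. Such sums are not normalized. After normalization the log2 fold change was 0.11 for miR-26a, 0.10 for miR-29a and 0.0093 for miR-29b. In whole tissue, fewer cells of a type and less RNA per cell cannot be told apart. The control probe for U2 small nuclear RNA was also brighter, at 3947 and 4037 in good performers, against 2781 and 2796 in poor performers, as was spike-in control 1, at 30839 and 31874 against 26521 and 25787. A second control probe with a U2 name had raw intensities of 5841 and 6195 in good performers, against 4514 and 4241 in poor performers. The part of these differences in the miR-466 values was not tested. With spike-in scaling, the log2 fold change of miR-466i was 0.50 and that of miR-466g 0.43 (limma adjusted p = 0.0013 and 0.0020). That scaling uses the spike-in controls alone, so it cannot decide on the U2 difference.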

How the data were processed

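Cy5-labelled hippocampal RNA was hybridised to 4 one-colour arrays, 1 per sample. The deposited raw intensity is spot brightness on a linear scale, and the deposited flag is a score of 0 or -50 per spot, per the file headers. A second table holds the authors' normalized intensity for 383 probes and their log2 ratio of good over poor performers, per the file headers. Neither the normalization nor the software or array design is stated in the material used here, so whether probes of related sequence can be told apart is unknown.

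Raw intensity was corrected with normexp (offset 50, all spots) in limma 3.58.1 and R 4.3.3, log2-transformed, quantile-normalized over 2115 miRNA spots and averaged over 3 spots. The 316 probes with at least 2 spots at flag 0 on both arrays of a group entered 1 limma fit (lmFit, then eBayes), and two-sided p-values were adjusted over all of them by Benjamini-Hochberg. Sample groups came from the performance label. The nearest profiles followed a fixed distance rule, and the probes, lists and sequences were chosen with earlier results of these data known. Alternatives covered scaling, offsets, filters, spot summaries, variance models, a replicate block and leaving out arrays. The fit was tested on simulated data.

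Arrays of a group differed by 2.68 (good) and 2.34 (poor) times the variance that spot noise predicts, and were counted as 2 replicates. Nothing states that they came from separate animals, so p-values reflect array-to-array spread that could be technical. The number of arrays limits the precision.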

Additional observations from a re-analysis of the deposited data

How the results depend on the processing

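With 2 arrays per group, the number of arrays and the low signal over background of 8 probes limit every value. As reported, 2 miR-466 probes were called, and the call was lost for both (count of 0) in 3 settings: offset 1, spot medians and the authors' normalized table. Both had an unadjusted limma p under 0.05 in each of the 3. Leaving out 1 array gave 0 to 0 called miR-466 probes and 0 to 0 called among all tested probes, with the single remaining array taken to vary as much as its counterpart group, and 3 to 5 of the 10 had an unadjusted limma p under 0.05. No setting called a miR-466 probe lower. Calls over all tested probes numbered 16 as reported, 29 with 75th percentile scaling over detected probes, 31 with spike-in scaling, 37 in the authors' normalized table, 30 if the variance model was trended and robust, 6 for spot medians and 7 with offset 1. Of these calls 10 were higher and 6 lower as reported, against 10 and 19, 10 and 21, and 6 and 31 in the first 3 alternatives. Members with a higher mean numbered 10 as reported, against 6, 5 and 6 in those 3. The median log2 fold change of the members was 0.040, 0.018 and 0.068 there, 0.29 with offset 1 and 0.055 with offset 200, against 0.14. The offset acts by construction on dim probes, and for the other settings the cause was not tested.

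Signs turned for probes near 0 that were not called. miR-466f had -0.10 with 75th percentile scaling over detected probes, -0.0022 over all probes, -0.0049 with cyclic loess, -0.13 with spike-in scaling, -0.095 in the authors' normalized table and -3.5e-05 for spot medians. In the same order for detected-probe, spike-in and authors' scaling, miR-466c-5p had -0.061, -0.083 and -0.025, miR-466f-5p -0.030, -0.053 and -0.0069, and miR-466j -0.088, -0.11 and -0.042. The shared 3p probe had -0.0034 with spike-in scaling. Without 1 array, miR-466f ranged from -0.024 to 0.025, miR-466j from -0.086 to 0.12 and miR-466c-5p from -0.0055 to 0.076. The subtraction of blank spots was chosen after seeing the data. With the replicate number as a replicate block, 2 miR-466 probes and 13 of all probes passed, with the same 2 probes called. Arrays with the same number deviated together with a correlation of 0.18 over the tested probes, and 2 pairs are too few to treat the numbers as pairs.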
